A study of Mus musculus with 51 samples.

Results

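Sorted tumor cells from transplanted mammary tumors were compared with sorted cells from primary mammary tumors of the same mouse model. Both groups were taken from the sample titles: titles that name a transplanted and sorted tumor gave 7 arrays, and titles that name a sorted tumor without transplantation gave 8, so that 15 of the 51 arrays of the study are described here. All of these mice, in both groups, carried a conditional Etv6-NTRK3 knock-in allele, the Rosa-Stop-lacZ reporter at Rosa26 and Wap-Cre, a Cre recombinase under the promoter of a milk protein gene, which turns on both alleles in milk-producing epithelium. The lacZ+ tumor epithelial cells were sorted and profiled on Affymetrix mouse MOE430.2 arrays. The study also profiled 4 sorted hyperplasias, 23 unsorted primary and 4 unsorted transplanted tumors, and 5 wild-type glands. Strain and age are not given in the labels.

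The 8 primary arrays came from 6 mice: 1 tumor each from mice F464, F405, E344 (tumor 1), G294 and G421 (tumor 1), and tumors 1, 3 and 4 of mouse F433. The 7 transplanted tumors had grown in RAG2-/- recipients and came from 5 mice of origin. They were tumor 1 of mouse D279 at passages 2 and 4, tumor 2 of D279 at passage 2, tumor 2 of E344 at passage 1, the tumor of F402 at passage 2, tumor 4 of F433 at passage 1 and the tumor of D396 at passage 3. Mice E344 and F433 have sorted arrays in both groups, and tumor 4 of F433 is the 1 tumor with a sorted primary and a sorted transplant array. Tumor 1 of D279 also has a primary array, but an unsorted one. Each array holds 1 tumor, and transplants of 1 mouse of origin are not independent of each other.

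ETV6-NTRK3 joins the oligomerization domain of a transcription factor to the kinase domain of a neurotrophin receptor and signals without ligand through the RAS-MAPK and PI3K pathways. It is the fusion of human secretory breast carcinoma, a tumor that makes milk proteins. RAG2-/- hosts make no mature T or B cells, but they keep macrophages, neutrophils and natural killer cells, so a transplanted tumor meets a host with innate immunity only. The comparison asks how tumor cells grown in such hosts differ in expression from tumor cells of the animals in which they arose.

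Sorted transplanted and sorted primary tumor cells were not separated by any gene of 15150 at a Benjamini-Hochberg adjusted p under 0.05 (limma, with the mouse each tumor came from as a random block, percent called 0). The lowest adjusted p was 0.105. At an unadjusted p under 0.05 there were 606 genes (4%), 2.16% of all genes higher in transplants and 1.84% lower. All values below are log2 intensities with a floor of 5, and differences are transplanted minus primary on that log2 scale. The differences are estimates of the fit, which takes mouse as a random block, so they can depart from the difference of the group means. For Amy1 the estimate was 1.36, beside group means of 5.76 in transplants and 5.00 in primary tumors. The median difference over all genes was 0.01, and the 5th and 95th percentiles were -0.34 and 0.33. For 13948 genes (92.1%) the 95% interval of the difference lay within 1 log2 unit of 0 on both sides. Of the 12022 genes with a mean over 5.69, the median probe set value, in at least 1 of the groups this held for 10856 (90.3%). For the other genes a difference of 2-fold or more was not excluded by the interval. These intervals use 1 spread per gene, pooled over all 6 groups, unsorted tissue and wild-type glands included. For genes that vary more between sorted tumors than in the other groups they are too narrow. With limma fitted on the 2 sorted groups alone, 0 genes of 15024 were called and 363 had an unadjusted p under 0.05.

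Epithelial genes were on in both groups. Krt8 and Krt18, the keratin pair of simple and luminal epithelium, and Epcam, an epithelial adhesion gene, were far above the floor on all 15 arrays. For Krt8 the lowest, median and highest values were 11.25, 12.38 and 12.80 in primary tumors and 11.20, 12.37 and 13.02 in transplants (difference 0.10 ± 0.25, SE, 95% interval -0.39 to 0.60, limma adjusted p = 1). The groups overlapped over nearly their whole range. Krt18 ran from 11.17 to 12.65 in primary tumors and from 11.01 to 13.12 in transplants (0.17 ± 0.27). Epcam ran from 9.82 to 12.44 in primary tumors and reached 12.45 in transplants (0.27 ± 0.26). Of the 14 luminal epithelial genes 12 had a positive difference and none was called, with a median of 0.16 beside 0.01 over all genes.

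Milk genes were on in both groups. Csn2, the beta-casein gene, lay between 12.43 and 13.48 in primary tumors and between 13.02 and 13.63 in transplants (0.15 ± 0.35, limma adjusted p = 1). Other milk genes varied from tumor to tumor far more than between the groups. Lalba, which encodes the alpha-lactalbumin subunit of lactose synthase, had a lowest, median and highest value of 8.69, 10.61 and 12.94 in primary tumors and of 8.21, 9.78 and 13.37 in transplants. The difference was 0.54 ± 0.64. Wap, the whey acidic protein gene, whose promoter drives Cre in these mice, ran from 5.95 through 7.16 to 11.95 in primary tumors and from 6.83 through 7.94 to 9.90 in transplants (0.37 ± 0.61). Both groups held tumors with low and tumors with high levels of each. Of 14 milk and alveolar genes 12 had a positive difference and none was called (median 0.32). Cholesterol synthesis, which supplies the membranes of growing cells, had 13 positive differences among 13 tested genes, none called (median 0.29). Of 12 fatty acid synthesis genes 8 had a positive and 4 a negative difference, and none was called (median 0.11).

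Basal genes varied between tumors in the same way. Krt5, which with Krt14 marks the basal layer, had a lowest, median and highest value of 5.89, 10.38 and 12.29 in primary tumors and of 8.48, 11.70 and 13.06 in transplants. The difference was 1.13 ± 0.85 (95% interval -0.57 to 2.84). The tumor of G421 was the lowest of the 15 arrays, and the transplant of F433 tumor 4 was the highest. Krt14 ran from 9.17 to 12.23 in primary tumors and from 10.10 to 12.68 in transplants (0.22 ± 0.52). Krt17, a keratin of basal and stressed epithelium, was at the floor in the tumor of G421 and at 5.32 in the transplant of E344 tumor 2, and reached 11.18 in the transplant of F433 tumor 4. Trp63, the gene of the basal transcription factor p63, ran from 5.00 to 9.14 and from 6.69 to 10.10. Krt17 and Trp63 were chosen after their values were seen. Of 14 basal and myoepithelial genes 8 had a positive difference and none was called.

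**Figure D1:**
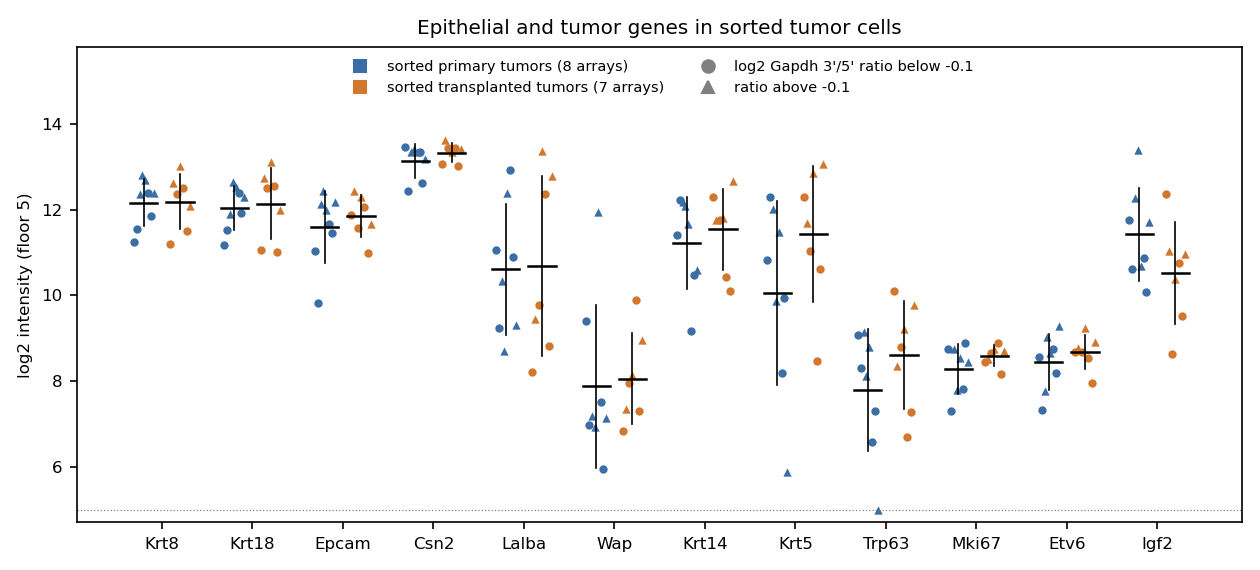
Log2 intensity (floor 5, dotted line) of 12 genes in 8 sorted primary and 7 sorted transplanted tumors, 1 point per array, with the group mean as a horizontal line and ± SD as a vertical line. Circles mark arrays with a log2 Gapdh 3'/5' control ratio below -0.1 and triangles those above it. For every gene shown the arrays of both groups overlap, and for Lalba, Wap, Krt5 and Trp63 the spread within a group exceeds the distance between the group means.

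The fused genes and the markers of growth did not pass either. Etv6 ran from 7.33 to 9.28 in primary tumors and from 7.96 to 9.25 in transplants (0.20 ± 0.24), and Ntrk3 from 5.00 to 6.90 and from 5.00 to 6.51 (-0.27 ± 0.23). The labels do not say whether these probe sets read the fusion. Mki67, a marker of cycling cells, had a lowest, median and highest value of 7.30, 8.50 and 8.89 in primary tumors and of 8.17, 8.66 and 8.90 in transplants (0.27 ± 0.30). All 22 mitosis genes had a positive difference, from 0.02 for Cdc20 to 0.40 for Kif11, and none was called (median 0.23, beside 0.01 over all genes). Their pairwise Pearson correlations over the 15 arrays had a median of 0.44 (-0.57 to 0.91), so these differences are not separate observations. The growth factor gene Igf2 ran from 10.08 to 13.39 in primary tumors and from 8.63 to 12.36 in transplants (-0.87 ± 0.55). Prtn3, a serine protease gene of granulocytes, ran from 7.37 to 10.82 and from 8.65 to 10.59 (-0.16 ± 0.42).

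The cell cycle inhibitor gene Cdkn2a was at or near the floor on all 15 arrays, with a highest value of 5.61. Cdkn1a, the p21 gene, lay between 8.45 and 10.67 in primary tumors and between 9.09 and 10.92 in transplants (0.32 ± 0.34). The AP-1 subunit genes Fos (0.02 ± 0.39), Jun (0.04 ± 0.23) and Junb (0.05 ± 0.25) had 95% intervals within 1 log2 unit of 0. Of 8 AP-1 genes 6 had a positive difference and none was called (median 0.05). Among 13 feedback genes of RAS-MAPK signalling none was called and the median was 0.06. Dusp6, the phosphatase gene of ERK, and Epha2, an ephrin receptor gene, had unadjusted p = 0.0169 and 0.0244 (limma adjusted p = 1 for both), with differences of 0.65 ± 0.26 and 0.69 ± 0.30.

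The list with the most positive median among 44 was that of the interferon response. Interferons act through STAT factors on a shared set of antiviral genes, among them guanylate-binding proteins, immunity-related GTPases and the IFIT and OAS families. Of 22 genes listed 19 were tested, and all 19 had a positive difference, from 0.07 for Stat2 to 1.47 for Gbp3, with a median of 0.79 beside 0.01 over all genes. None of the 19 was called, and 4 had an unadjusted p under 0.05, where the share over all genes in the same direction was 2.16%. These genes varied together, with a median pairwise Pearson correlation of 0.80 over the 15 arrays, so their differences are not separate observations.

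The mean log2 intensity of the 19 genes had a lowest, median and highest value of 7.18, 7.93 and 9.70 in primary tumors and of 8.24, 9.34 and 9.82 in transplants. Tumor 1 of F433, at 9.70, lay among the highest transplants, and tumor 3 of F433, at 8.47, lay above 2 transplants. The other 6 primary tumors lay below all transplants. Gbp3, a guanylate-binding protein gene, ran from 6.52 through 8.11 to 10.20 in primary tumors and from 8.98 through 10.11 to 10.48 in transplants, and its difference was 1.47 ± 0.49 (limma unadjusted p = 0.0043, adjusted p = 1). Irgm1, a GTPase gene of defence against intracellular pathogens, ran from 7.03 through 8.38 to 10.33 and from 9.17 through 9.72 to 10.63, with a difference of 1.27 ± 0.39 (unadjusted p = 0.00221, adjusted p = 0.911). For both genes the transplants occupied the upper part of the range, and 1 or more primary tumors reached into it.

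Gbp2 (1.40 ± 0.52) and Iigp1, another GTPase gene of the same family as Irgm1 (1.29 ± 0.53), had unadjusted p = 0.0102 and 0.0194, each with an adjusted p of 1 in limma. Ifit1 and Usp18 were chosen after their values were seen. Ifit1 ran from 5.00 to 9.28 in primary tumors and from 6.93 to 9.53 in transplants (1.26 ± 0.64), and Usp18, which encodes an inhibitor of the interferon receptor, ran from 5.96 to 9.64 and from 7.63 to 9.73 (1.18 ± 0.66). Ifi44l, an interferon-induced gene outside the list and chosen after its values were seen, was at the floor in 5 of 8 primary tumors and above it in 7 of 7 transplants. It ran from 5.00 to 5.82 in primary tumors and from 5.24 to 8.69 in transplants (1.47 ± 0.32, limma adjusted p = 0.114). The transplants of F402 (8.69) and of E344 tumor 2 (8.02) were the highest.

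Interferon-activated transcription factors bind an element of repeated GAAA blocks, and the sequences upstream of 4 of these genes are printed here because they hold it. Below are the 150 bases before the annotated start, 5′ to 3′ on the strand of the gene, from RefSeq on GRCm38.p6. Capitals mark the motif, 2 blocks of GAAA with any 2 bases between them, or its reverse complement with 2 blocks of TTTC, and overlapping matches run together.
Ifit1, chr19:34640739-34640888, plus strand: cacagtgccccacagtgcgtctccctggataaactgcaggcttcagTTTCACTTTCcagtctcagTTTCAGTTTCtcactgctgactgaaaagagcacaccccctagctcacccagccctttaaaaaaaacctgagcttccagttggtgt
Gbp2, chr3:142620513-142620662, plus strand: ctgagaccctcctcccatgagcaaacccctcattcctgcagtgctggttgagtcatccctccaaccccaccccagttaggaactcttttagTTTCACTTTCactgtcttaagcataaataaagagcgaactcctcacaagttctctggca
Gbp3, chr3:142559894-142560043, plus strand: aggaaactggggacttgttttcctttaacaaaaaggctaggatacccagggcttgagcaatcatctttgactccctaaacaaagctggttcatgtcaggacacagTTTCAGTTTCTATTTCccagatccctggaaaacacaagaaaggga
Irgm1, chr11:48871421-48871570, minus strand: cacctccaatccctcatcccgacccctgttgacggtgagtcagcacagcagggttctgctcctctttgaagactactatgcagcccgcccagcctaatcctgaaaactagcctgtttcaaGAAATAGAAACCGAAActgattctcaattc
In these windows Ifit1 holds 2 matches, Gbp2 holds 1, and Gbp3 and Irgm1 hold 2 overlapping matches each. A second annotated start of Gbp3 has no match in its window. Within 250 bases upstream, on either strand, 10 of the 14 interferon genes with a promoter entry hold the motif (71.4%), as do 936 of 27025 genes in all (3.46%) and 978 of 32851 windows (2.98%). A match is a description of these letters and shows no binding in these tumors.

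The interferon genes depended on which tumors were compared. The arrays were divided into classes by the log2 ratio of the 3' to the 5' control probe set of Gapdh, a measure of how complete the labelled RNA was. The limit of -0.1 was chosen for this report and is not in the labels. The tumor of G294 (-0.109) lay just below it, and the nearest array above it was at -0.029. The classes also followed the order of the samples in the series and the bacterial spike-in signal, which was 9.09 or more below the limit and 8.86 or less above it. All 4 arrays of F433 lay in 1 class. The log2 Actb ratio did not follow the classes, with 0.18 to 0.41 below the limit and 0.13 to 0.57 above it. Mouse D279 had arrays in both classes. Order of samples, spike-in signal and what the Gapdh ratio measures thus cannot be told apart in these classes, and mouse only in part. Within the arrays whose ratio lay below -0.1, the list mean had a median of 7.72 in 4 primary tumors and ran from 8.48 to 9.82 in 4 transplants, without overlap, and the median difference was 1.37. Within the arrays above that limit it ran from 7.18 to 9.70 in 4 primary tumors and from 8.24 to 9.70 in 3 transplants, and the median difference was 0.23. With mouse as a fixed block, where E344 and F433 alone inform the difference, the median was -0.05. Without the transplant of F433 tumor 4 it was 1.23, and without all arrays of F433 it was 1.46. The part of array quality in these values was not tested. Ifi44l passed within the arrays below the limit (2.25 ± 0.39, limma adjusted p = 0.0158) and did not pass within those above it.

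Genes of antigen presentation on MHC class I, many of which interferons induce, also had positive differences. All 11 tested genes had a positive difference and none was called (median 0.55). Their median pairwise Pearson correlation was 0.77, so these differences are not separate observations either. The list mean ran from 8.35 through 8.90 to 10.36 in primary tumors and had a median of 9.67 and a highest value of 10.26 in transplants, and tumor 1 of F433 was the highest of all 15 arrays. Of these B2m, the invariant light chain, had a difference of 0.57 ± 0.31, the transporter gene Tap1 of 0.71 ± 0.40 and the transactivator gene Nlrc5 of 0.86 ± 0.47. Erap1, a peptide-trimming protease gene, had an unadjusted p of 0.0239 in limma (0.66 ± 0.28, adjusted p = 1).

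**Figure D2:**
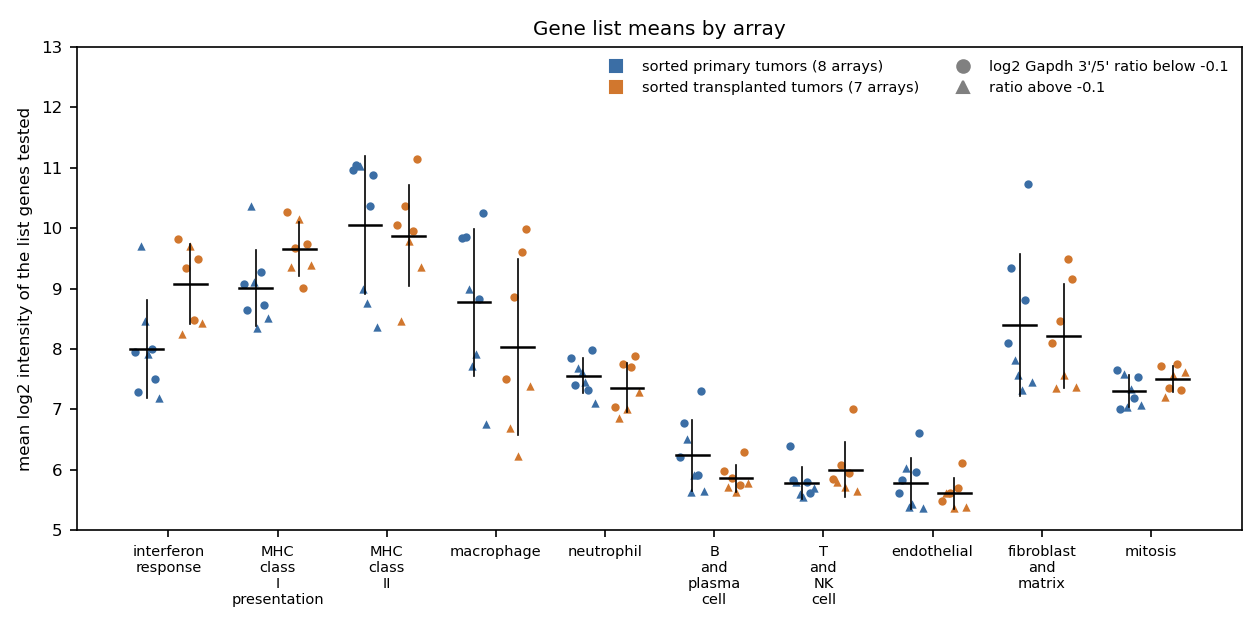
Mean log2 intensity over the tested genes of 10 gene lists, 1 point per array, in 8 sorted primary and 7 sorted transplanted tumors, with the group mean as a horizontal line and ± SD as a vertical line. The interferon list reaches from 7.18 to 9.70 in primary tumors and from 8.24 to 9.82 in transplants, and the macrophage list from 6.76 to 10.26 and from 6.23 to 9.99.

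Macrophage genes had the most negative median of the 44 lists. These genes encode the CSF1 receptor, on which macrophages depend, complement C1q, scavenger receptors and surface markers. Csf1r, Adgre1, Cd68 and the 3 C1q genes were above the floor on all 15 arrays, while Cd163, Itgam, Msr1 and Aif1 were at it on some. All 19 had a negative difference, from -0.11 for Cx3cr1 to -1.15 for Csf1r, with a median of -0.77. None was called, and 6 had an unadjusted p under 0.05, where the share over all genes in the same direction was 1.84%. The 19 genes varied together, with a median pairwise Pearson correlation of 0.92 over the 15 arrays, so their differences are not separate observations. In sorted bulk samples fewer cells of a type and less RNA per cell cannot be told apart.

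Csf1r, the receptor gene, had a lowest, median and highest value of 8.20, 11.38 and 12.75 in primary tumors and of 7.18, 9.56 and 12.15 in transplants (difference -1.15 ± 0.56, limma unadjusted p = 0.0457, adjusted p = 1). Adgre1, the gene of the F4/80 antigen, ran from 7.12 through 8.98 to 10.46 and from 6.88 through 7.60 to 9.93 (-0.77 ± 0.38). C1qb ran from 7.65 through 11.20 to 12.09 and from 6.83 through 8.72 to 11.70 (-1.14 ± 0.56). In each case both groups held tumors across most of the range. For Csf1r the SD was 1.74 in sorted primary tumors and 1.99 in sorted transplants, but 0.72 and 0.08 in the unsorted ones. The SE pools all 6 groups, so for this gene it understates the spread between sorted tumors. Cd163, a scavenger receptor gene, was above the floor in 8 of 8 primary tumors and 5 of 7 transplants (-1.11 ± 0.42, unadjusted p = 0.0104), and Itgam, an integrin gene of myeloid cells, in 8 of 8 and 3 of 7 (-0.77 ± 0.26, unadjusted p = 0.00516). The adjusted p of each was 1 in limma.

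The mean of the 19 macrophage genes ran from 6.76 through 8.91 to 10.26 in primary tumors and from 6.23 to 9.99 in transplants. It moved with the array classes as well as with the groups. Below the Gapdh ratio limit it ran from 8.82 to 10.26 in primary tumors and up to 9.99 in transplants, with medians of 9.85 and 9.23, and above it from 6.76 to 8.99 and from 6.23 to 7.39. The median difference was -0.70 within the first class and -1.07 within the second, and it was -0.71 with mouse as a fixed block. It was -0.46 without the transplant of D396 and -0.25 without the transplants of passages 3 and 4. The part of array quality in these values was not tested. The 6 tested MHC class II genes, which macrophages and dendritic cells use to present antigen, also had negative differences, and none was called (median -0.36). Their mean ran from 8.37 to 11.04 in primary tumors and from 8.46 to 11.15 in transplants.

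Other cell types were low or did not separate the groups. Ptprc, the pan-leukocyte gene of CD45, ran from 6.14 to 10.78 in primary tumors and from 5.57 to 10.87 in transplants (-0.56 ± 0.55). The T and NK cell list had means from 5.55 to 6.39 and from 5.64 upward, the highest in the transplant of F402, and 10 of its 16 genes were tested. Cd3e, a chain of the T cell receptor complex, did not pass the filter on low values. B and plasma cell genes had means from 5.63 to 7.30 and from 5.63 to 6.30. Jchain, which antibody-secreting cells express, was above the floor in 5 of 8 primary tumors and in 1 of 7 transplants, that of F402 (-1.29 ± 0.64, limma adjusted p = 1). The endothelial gene Pecam1 was listed at the floor on all 15 arrays, and the endothelial list means lay between 5.36 and 6.61.

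Fibroblast and matrix genes differed more between array classes than between groups, with means from 8.10 to 10.74 below the Gapdh limit and from 7.31 to 7.81 above it in either group. Col1a1, the type I collagen gene, ran from 7.68 to 11.71 in primary tumors and from 7.83 to 11.29 in transplants (0.06 ± 0.67). Of 7 pericyte genes all had a negative difference and none was called (median -0.19). Hormone-sensing luminal genes had no positive difference among 8 tested, and none was called (median -0.35). Cited1 and Tnfsf11 of these were at the floor in both groups. The estrogen receptor gene Esr1 (-0.60 ± 0.30) and its pioneer factor gene Foxa1 (-0.93 ± 0.46) had unadjusted p = 0.0477 and 0.0494, with an adjusted p of 1 each in limma.

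**Figure D3:**
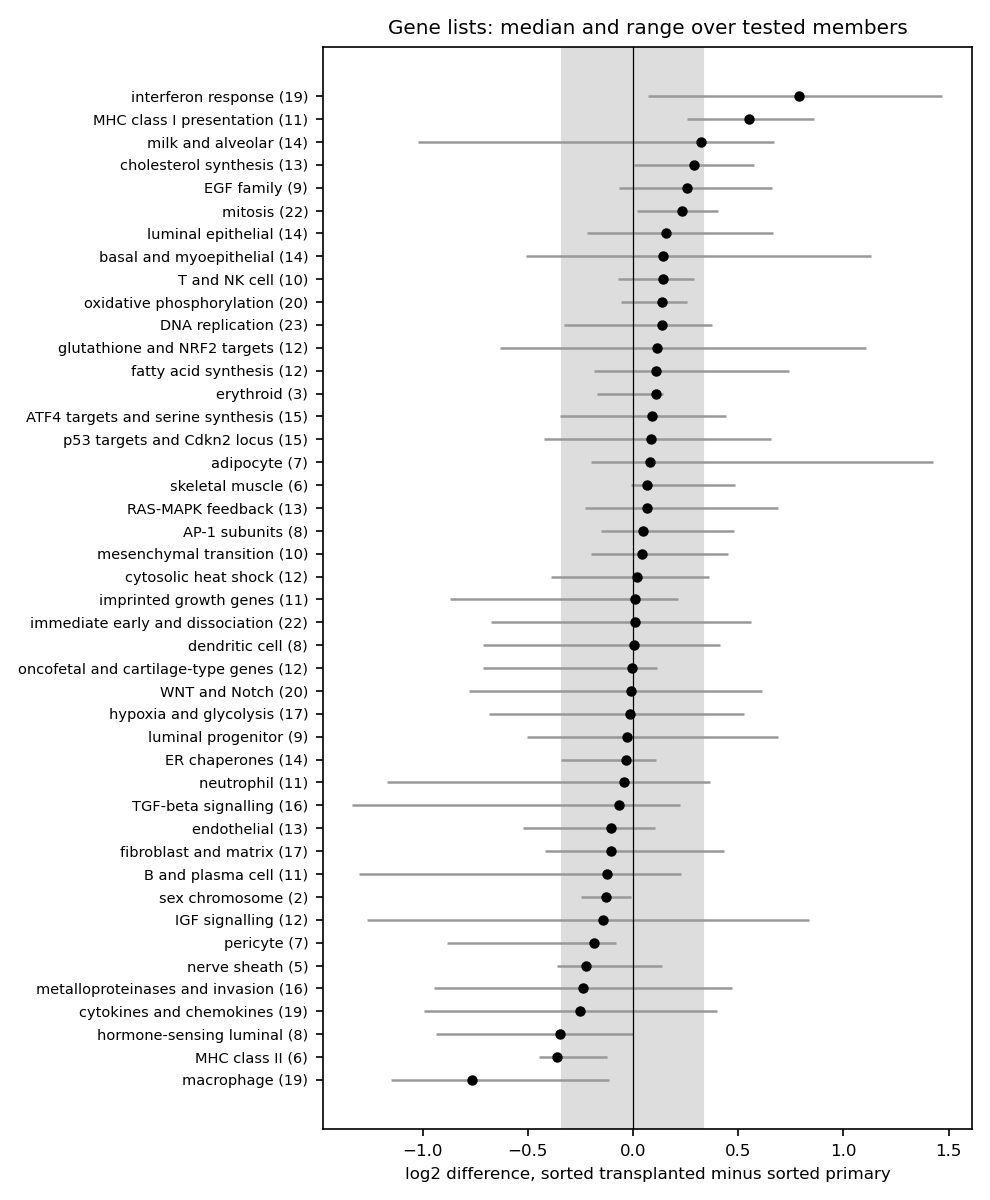
Median (point) and range (line) of the log2 difference, sorted transplanted minus sorted primary, over the tested members of 44 gene lists, with the number of tested genes in parentheses. The grey band spans the 5th to the 95th percentile of all 15150 genes (-0.34 to 0.33), and the medians of the interferon response (0.79), MHC class I presentation (0.55), hormone-sensing luminal (-0.35), MHC class II (-0.36) and macrophage (-0.77) lists lie outside it.

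The genes with the lowest unadjusted p, chosen after their values were seen, stood outside these lists. Crebzf, a basic leucine zipper gene, ran from 7.23 through 7.51 to 8.58 in primary tumors and from 6.74 through 6.81 to 7.29 in transplants (-0.72 ± 0.15, limma adjusted p = 0.105). Slc38a10, an amino acid transporter gene, ran from 8.76 through 9.28 to 10.08 and from 8.04 through 8.68 to 8.93 (-0.77 ± 0.16, adjusted p = 0.105). Crebzf values of the groups met between 7.23 and 7.29, where the transplant of D396 lay beside 2 primary tumors, and those of Slc38a10 between 8.76 and 8.93. After quantile normalization of the arrays both passed (adjusted p = 0.0276 for each). Slc25a44, a mitochondrial carrier gene, was the 1 gene of 15150 (0.0066%) whose groups did not overlap, with 6.53 to 7.48 in primary tumors and 5.67 to 6.52 in transplants (-0.69 ± 0.21, adjusted p = 0.911).

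In the other direction Serpinb11, a serpin gene, was at the floor in 4 of 8 primary tumors and ran up to 7.65 there, against 6.53 through 7.93 to 9.82 in transplants (1.94 ± 0.49, limma adjusted p = 0.44). The 4 primary tumors at the floor were those with the Gapdh ratio above -0.1. Scgb2b27, a secretoglobin gene, was at the floor in all 8 primary tumors and above it in 3 of 7 transplants, those of E344 tumor 2 (6.67), F433 tumor 4 (6.78) and D396 (7.52). Its difference was 1.09 ± 0.23 (limma adjusted p = 0.105), and with mouse as a fixed block it passed (1.74 ± 0.23, adjusted p = 0.00928). Slc39a8, a metal ion transporter gene, ran from 6.36 through 9.32 to 11.80 in primary tumors and from 5.40 through 7.61 to 8.63 in transplants (-2.07 ± 0.70, adjusted p = 1).

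Some genes varied widely between tumors in both groups. Tspan8, a tetraspanin gene, had the highest SD over the 15 arrays (2.88). It was above 10 in 4 primary tumors, that of F464 (10.06), tumors 3 and 4 of F433 (11.43 and 11.59) and that of G421 (11.78), and in the transplants of E344 tumor 2 (11.61), F433 tumor 4 (11.11) and D396 (10.32). It was at the floor in all 3 transplants of D279. Wif1, a secreted WNT inhibitor gene, was high in other tumors. The 3 transplants of D279 had 10.81, 10.79 and 11.81, and tumor 1 of E344 had 10.30, while the transplants of E344 tumor 2, F402 and F433 tumor 4 were at the floor. Both genes were chosen after their values were seen.

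Whole profiles did not divide by group. Over 15150 genes the Pearson correlation between arrays of different mice and the same Gapdh class had a median of 0.921 between the groups (24 pairs) and of 0.917 within a group (17 pairs). Arrays of different classes were less alike, with medians of 0.888 between groups and 0.879 within a group. Of 8 genes that were over 4-fold higher on every array below the ratio limit than on any array above it, 4 were at the floor on all 7 arrays above it, among them Haao, Sapcd2 and Nek4. No gene went the other way. Each group was split almost evenly, 4 and 4 primary tumors and 4 and 3 transplants. The Gapdh ratio, the Actb ratio, the bacterial spike-in signal and the array median did not pass between the groups (exact permutation p, two-sided, from 0.15 to 0.877, and 0.598 to 0.877 adjusted over 4 tests). These tests took the arrays as independent, although several share a mouse of origin.

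**Figure D4:**
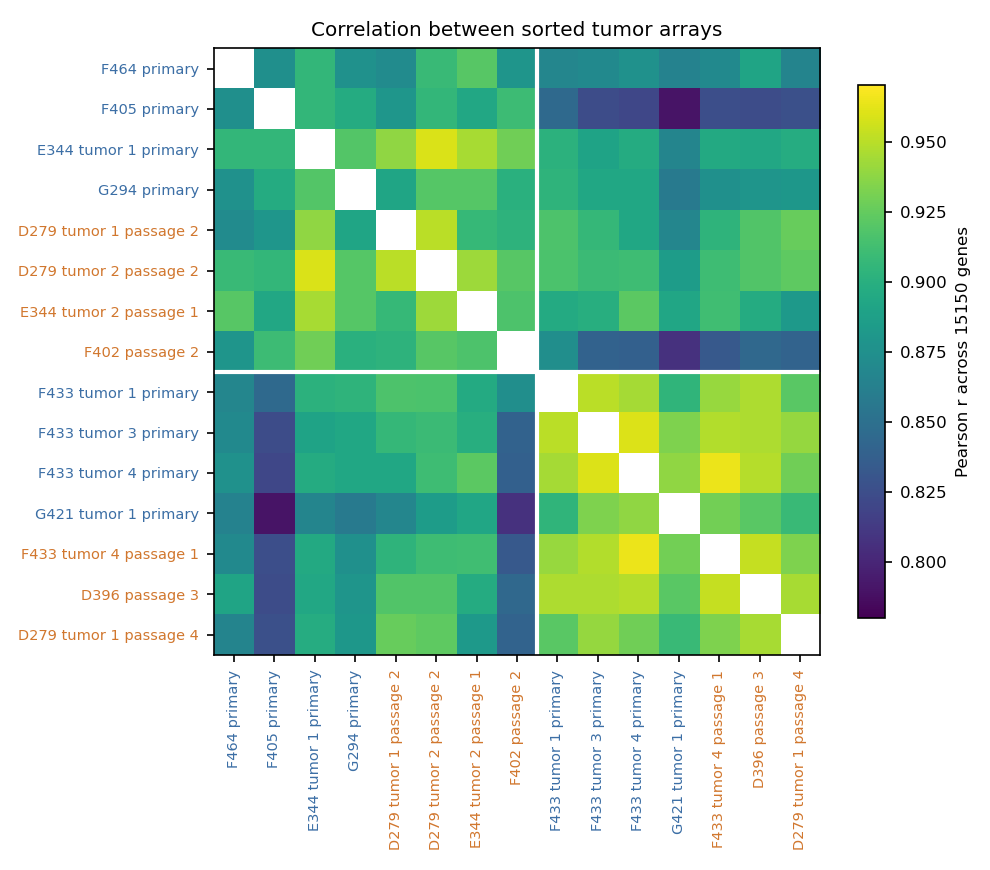
Pearson correlation over 15150 genes between each pair of the 15 sorted tumor arrays, with primary tumors labelled in blue and transplants in orange. White lines separate arrays with a Gapdh 3'/5' ratio below -0.1 (first 8) from those above it (last 7), and the brightest cell off the diagonal is F433 tumor 4 with its own transplant (0.965).

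The transplant of F433 tumor 4 was closer to the primary tumor it came from than to any other array. Their correlation was 0.965, the highest of 105 pairs, and 477 genes (3.15%) differed by over 2-fold. Tumors 3 and 4 of F433 came next, at 0.960 with 605 genes. Tumor 2 of D279 at passage 2 was nearest to a primary tumor of another mouse, tumor 1 of E344 (0.959 with 620 genes). The transplant of E344 tumor 2 and the primary E344 tumor 1 had 0.946 with 865 genes, and tumor 1 of D279 at passages 2 and 4 had 0.926 with 1528 genes, the latter on arrays of different Gapdh classes. There is 1 matched pair of sorted arrays, so these are descriptions without a test.

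Genes that set tumor 4 of F433 apart from tumors 1 and 3 of the same mouse were followed into its transplant. Over 4-fold from both other tumors there were 28 higher and 10 lower genes, and the transplant lay nearer to tumor 4 for 13 and 8 of them. The genes were chosen by the 1 array of tumor 4, and no share for other arrays was computed to set beside these counts. The next 3 genes were among those nearer to tumor 4. Xist, the noncoding RNA of the inactive X chromosome, was 7.62 in tumor 4 and 7.13 in its transplant, against 10.92 and 10.80 in tumors 1 and 3. All arrays but these 2 lay between 10.80 and 12.72. Fbxw7, the gene of a ubiquitin ligase subunit that marks MYC and Notch for degradation, was at the floor in tumor 4 and in its transplant, against 7.67 and 7.58. Klk10, a kallikrein gene, was 10.67 in tumor 4 and 10.51 in the transplant, against 5.22 and 5.28.

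Genes of milk and secretion were among both those that were nearer to tumor 4 in its transplant and those that were not. Csn1s2b, a casein gene, was 10.56 in tumor 4 and at the floor in the transplant, and Wap was 11.95 and 8.96. The alveolar factor gene Elf5 was 10.90 and 10.02, against 8.49 and 8.52 in tumors 1 and 3, and the milk fat globule gene Btn1a1 was 11.74 and 11.12, against 7.87 and 9.59. Lrp5, a WNT coreceptor gene, was at the floor in tumor 4 and at 7.52 in the transplant, near 7.13 and 7.19 in tumors 1 and 3. Bpifa2, Amy1 and Pip, chosen after their values were seen, were highest of all 15 arrays in this transplant. Bpifa2, a secreted protein gene of the parotid gland, was 11.77, next to 8.16 in the transplant of D396, and was at the floor in tumor 4. Amy1, a salivary amylase gene, was 10.17 against at most 5.15 on every other array, and Pip, the prolactin-induced protein gene, was 9.80 and was 7.73 in tumor 4.

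**Figure D5:**
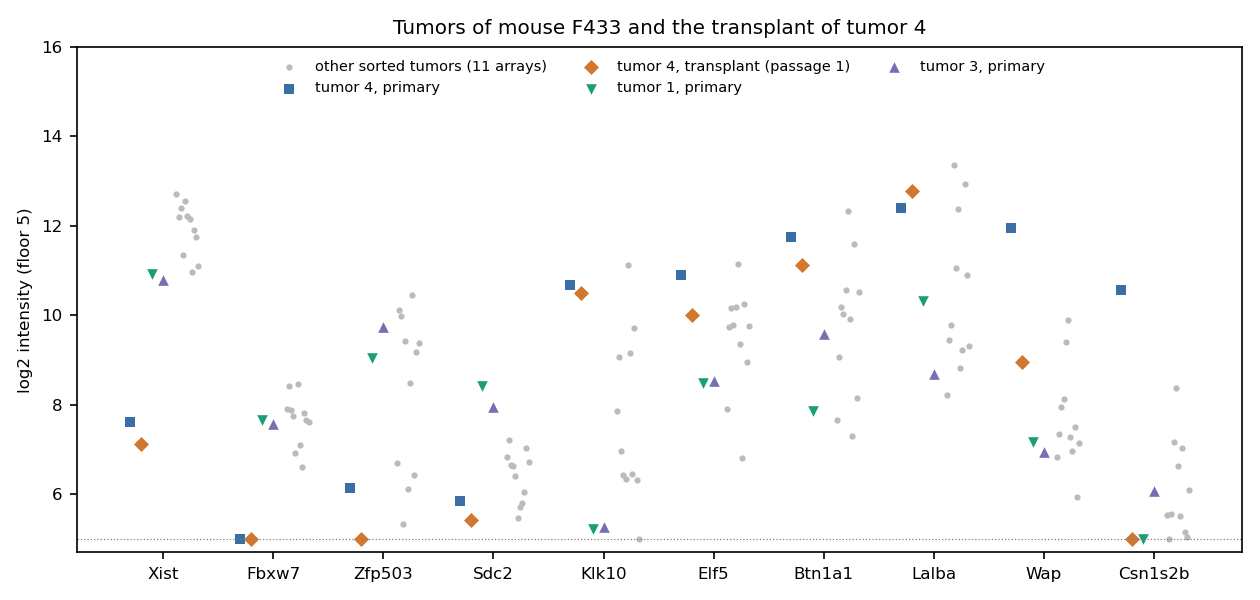
Log2 intensity (floor 5, dotted line) of 10 genes in tumors 1, 3 and 4 of mouse F433, in the passage 1 transplant of tumor 4 and in the other 11 sorted tumor arrays (grey). Tumor 4 and its transplant lie apart from the other arrays for Xist (7.62 and 7.13) and Fbxw7 (both at the floor), while Csn1s2b is 10.56 in tumor 4 and at the floor in its transplant.

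The difference between transplanted and primary tumors was also set beside that in unsorted tumors. There 4 transplants from mice CR90 and CR115 were compared with 23 primary arrays, and 143 of 15150 genes passed (0.944%), 114 higher and 29 lower. No sorted array came from CR90 or CR115. Sorting and the tumors that were transplanted therefore cannot be told apart in what follows. Of these 143 genes 8 had an unadjusted p under 0.05 in the sorted comparison, for which the share over all genes was 4%. The difference between the sorted and the unsorted effect passed for 13 genes (0.0858%), 2 more positive and 11 more negative in sorted cells. Clca3a2 and Clca3a1, chloride channel accessory genes, differed in effect by 3.88 ± 0.83 and 3.48 ± 0.75 (limma adjusted p = 0.0445 for both). Under 10 of 25 alternatives neither passed (adjusted p up to 0.0844), among them leaving out any 1 of the transplants of E344 tumor 2, F402, F433 tumor 4 and D396 or of the primary tumors of F464, F405, E344 and G294. Clca3a2 ran from 9.25 to 12.95 in sorted primary tumors and from 9.52 to 12.53 in sorted transplants, while in unsorted tumors it ran from 8.25 to 12.86 in primary tumors and from 5.00 to 9.58 in transplants.

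On the negative side the largest difference of effects was that of Slc6a15, a neutral amino acid transporter gene (-3.33 ± 0.58, limma adjusted p = 0.00245). It ran from 5.00 to 7.48 and from 5.00 to 7.29 in sorted tumors, and from 5.00 to 7.38 and from 8.05 to 9.09 in unsorted primary tumors and transplants. Arsi, an arylsulfatase gene (-2.99 ± 0.42, adjusted p = 3.64e-05), Reep1, an endoplasmic reticulum shaping gene (-2.53 ± 0.30, adjusted p = 5.65e-07), and Prmt1, an arginine methyltransferase gene (-2.33 ± 0.50, adjusted p = 0.0445), were next. All 4 were called higher in unsorted transplants than in unsorted primary tumors, and their sorted groups overlapped. Arsi and Reep1 were highest among sorted primary tumors in the tumor of G294 (9.50 and 6.91). The 7 other genes were Cnih2, Hdac8, Nme4, Naa30, Magef1, Lrrc1 and Lmo4, with differences of effects from -0.40 to -1.67. Arsi, Reep1 and Nme4 passed under all 25 alternatives, and Slc6a15, Cnih2 and Hdac8 failed under 1, 2 and 1. None of the 25 left out an unsorted tumor, so dependence on single unsorted transplants was not tested. Prmt1, Magef1, Naa30, Lrrc1 and Lmo4 failed under 10, 10, 11, 12 and 14, most of them with 1 sorted array left out. The number of genes that passed was 6 to 31 when 1 sorted array was left out. The interferon list had a median of 0.79 in sorted and -1.51 in unsorted transplants, and the difference of effects passed for none of its 19 genes.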

How the data were processed

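The authors deposited 1 intensity per probe set and array for 51 Affymetrix arrays. Per the labels' protocols, total RNA was extracted with Trizol and labelled with biotin. The summarization, scaling and genome build are not given in the sources used here. Deposited intensities were set to at least 32 and put on the log2 scale, where the floor is 5 and 37.4% of values lay below it. Fold changes of dim genes are therefore understated. Array medians of the sorted tumors were 46.1 to 56.4, and precision is limited by how many arrays each group has.

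Of 45101 probe sets, 64 controls and 1 with extreme values were left out. The platform table gave 1 symbol for 34944, several for 932 and none for 9160, and 34741 were named through RefSeq. Each gene was represented by 1 probe set, which gave 18192 genes, of which 15150 passed the filter (above the 40th percentile on at least 4 arrays). limma 3.58.1 (R 4.3.3) was fitted over all 6 groups with the mouse each tumor came from as a random block, at a Benjamini-Hochberg adjusted p under 0.05, and 2 repeat arrays of 1 unsorted tumor were averaged. The fit was tested on simulated data. Control measures were compared with exact permutation tests over arrays, without a block for mouse. Tables and figures used Python 3.11.15, numpy 2.4.6, pandas 2.3.3, scipy 1.17.1 and matplotlib 3.10.9. Promoter sequences were those of RefSeq on GRCm38.p6.

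Members and gene lists (44 lists, 605 genes, 544 tested) were chosen with earlier results of these data known. The text was to name the largest called changes, called list members and a set of 25 genes. Since no gene was called in the sorted comparison, the 10 genes per direction with the lowest unadjusted p and list members with an unadjusted p under 0.05 were added. Not all of these are described in the text. Genes outside both were chosen after their values were seen, among them Ifit1, B2m, Tap1, Nlrc5, Usp18, Elf5, Csn1s2b, Slc39a8, Haao, Sapcd2, Nek4, Fbxw7, Klk10, Btn1a1 and Lrp5, as were the genes at the ends of a list's range (Cdc20, Kif11, Stat2, Cx3cr1). P-values measure the spread between tumors, and several tumors share a mouse. Alternatives covered floors, normalization, probe set choice, filters, blocks, covariates and left-out arrays.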

Additional observations from a re-analysis of the deposited data

Results flagged for a closer look

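Within a group of 7 or 8 sorted arrays, single arrays stood far from the others in 27 of 252 groups of values checked (10.71%). Chance gives about 1 in 20 for values chosen without looking, but many of these genes were chosen for their values, so the share cannot be read against that rate. Many belonged to tumor 4 of F433 and its transplant. Xist was lowest in both (7.62 and 7.13, against 10.80 or more in the other primary tumors and 11.34 or more in the other transplants), and so was Fbxw7 (5.00 in both). Erdr1 was lowest among primary tumors in tumor 4 (7.55), and Pip was highest in both (7.73 and 9.80). In the transplant alone Amy1 (10.17), Smr3a (10.17) and Chia1 (9.19) stood above the other transplants.

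The primary tumor of G294 was highest for Arsi (9.50), Naa30 (8.75) and Reep1 (6.91). Tumor 1 of E344 was highest among primary tumors for Bpifa2 (6.31), Chia1 (6.38) and the mean of the T and NK cell list (6.39). The transplant of F402 was highest among transplants for that list (7.003), for Jchain (6.86) and for Cdkn2a (5.29), and the primary tumor of F405 was highest for Cdkn2a (5.61). The tumor of F464 was highest for Crebzf (8.58) and Zfp771 (9.37), and the transplant of D396 was highest among transplants for Crebzf (7.29). Krt17 was lowest in the transplant of E344 tumor 2 (5.32), and Slc25a44 in tumor 1 of D279 at passage 2 (5.67), where Cnih2 was instead highest at passage 4 (5.58). The MHC class I mean was highest among primary tumors in tumor 1 of F433 (10.36).

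The effect of transplantation differed between the sorted and the unsorted tumors for 13 genes in limma. The unsorted transplants came from mice CR90 and CR115, which have no sorted array, so sorting and tumor of origin cannot be told apart. Sorted minus unsorted, the difference of the log2 effects was 3.88 for Clca3a2 and 3.48 for Clca3a1. It was -3.33 for Slc6a15, -2.99 for Arsi, -2.53 for Reep1, -2.33 for Prmt1, -1.67 for Lmo4, -1.65 for Nme4, -1.53 for Naa30, -1.42 for Lrrc1, -1.32 for Cnih2, -1.09 for Magef1 and -0.40 for Hdac8.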

How the results depend on the processing

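Over 39 settings, 35 of them planned and 4 chosen after seeing the data, no called direction reversed, and no list member was called in the sorted comparison under any of them. Sorted calls, 0 as reported, came to 2 lower with quantile normalization, 1 lower with array weights, 3 (2 higher, 1 lower) with mouse as a fixed block, 1 higher without mouse D279, 2 higher without passages 3 and 4, 2 higher below the Gapdh limit and 7 (4 higher, 3 lower) above it. Leaving out 1 array gave 0 to 3 (0 to 2 higher, 0 to 1 lower), with 3 without tumor 1 of E344 and 3 without the transplant of D396. Among the genes followed over 38 settings, Slc16a11 passed most often, in 4 of them, with a difference from 0.11 to 1.33 over the settings. Scgb2b27 and Ifi44l passed in 3 each, and Akr1c13, Chia1, Crebzf and Slc38a10 in 2 each. Differences of effects, 13 as reported (2 higher, 11 lower), came to 68 higher and 138 lower (2.1e+02 in all, rounded) with no mouse block, 8 (0 and 8) with only the 4 tumor groups, 61 (3 and 58) with a floor at 100, 3 (0 and 3) with a floor at 10, 22 (2 and 20) with quantile normalization, 37 (2 and 35) with median scaling, 25 (2 and 23) with the mean of a gene's probe sets, 19 (2 and 17) with no filter and 23 (5 and 18) with array weights. Leaving out 1 array gave 6 to 31 (0 to 12 higher, 6 to 19 lower), with 31 without tumor 1 of F433, 6 or 7 without tumor 1 of E344, the tumors of G294 and F464 or the transplants of F402, D396 and F433 tumor 4, and 8 without tumor 3 of F433. Clca3a1, Clca3a2, Prmt1, Magef1, Naa30, Lrrc1 and Lmo4 lost the call under 10 to 14 alternatives. The cause was not tested. No alternative for the differences of effects left out an unsorted tumor. No paired analysis was possible because the labels number only repeat arrays of 1 unsorted tumor, as far as pairing by replicate number goes. By mouse it was possible, and the fixed block given above compares within E344 and F433. Leaving out 1 array, the group difference was -0.12 to -0.05 for the Gapdh ratio, -0.05 to 0.01 for the Actb ratio, -0.15 to 0.23 for the spike-in signal and 0.02 to 0.07 for the array median, none past the threshold. Of 4245 pairs of a named gene and a setting, 216 changed sign with neither value called. Dim genes are limited by the floor.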
